A study of Bos taurus with 23 samples.

Results

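ENSBTAG00000027962 is 1 of 24616 bovine Ensembl genes with a row in the count tables of both experimental stations, and its transcript level was measured in peripheral white blood cells (PWBC) of 23 heifers. The gene was selected on its measured level in 9 libraries of station B, where it was the only gene called between non-pregnant and AI-pregnant heifers. Its values in those 9 libraries are therefore a description and carry no test. The files and the study pair the identifier with no gene symbol, and no position or sequence of the gene was available for use here. The length with which the authors scaled its counts was 673 bases, recovered from the counts and the length-scaled values in every library of both stations.

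Blood was drawn from crossbred beef heifers (Angus x Simmental) at fixed-time artificial insemination (AI) that followed estrous synchronization, and all heifers were pubertal. In station A, 6 heifers became pregnant to AI (AI-pregnant) and 5 became pregnant later to natural breeding with bulls (NB-pregnant). In station B, 6 heifers were AI-pregnant and 6 had not conceived by the close of breeding (non-pregnant). Each heifer gave 1 library, so the replicate is the heifer. PWBC are the buffy coat of the blood after lysis of the red cells, a mixture of neutrophils, lymphocytes, monocytes, eosinophils and basophils that form the circulating arm of innate and adaptive immunity. Their proportions differ between animals, and in such a bulk sample fewer cells of a type and less RNA per cell cannot be told apart.

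Libraries held between 4826003 and 20434401 counted read pairs, and 1 CPM (1 count per 1000000 counted pairs) therefore rests on 4.83 to 20.4 read pairs. Of the 12 libraries of station B, SL253804, SL253808 and SL253811 stood apart from the other 9. Each of the 3 had between 1455 and 1602 of the 1706 genes that passed the expression filter in station A alone above 1 CPM, against 17 to 147 of them in each of the other 9. By definition such a gene exceeded 1 CPM in fewer than 6 of the 12 libraries of station B. Low numbers in most of these libraries therefore came with the list, though not which 3 libraries were high. The 9 libraries came from 5 AI-pregnant and 4 non-pregnant heifers. The 3 set aside came from 2 non-pregnant heifers (SL253804 and SL253811) and 1 AI-pregnant heifer (SL253808). Their separation rests on the expression profile, since the labels name no batch.

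In the 9 libraries the gene was low in all AI-pregnant heifers and high in all non-pregnant heifers. The AI-pregnant heifers had 1.30 CPM (SL253803), 1.29 CPM (SL253807), 1.67 CPM (SL253809), 1.99 CPM (SL253810) and 2.84 CPM (SL253812). The non-pregnant heifers had 16.7 CPM (SL253805), 9.503 CPM (SL253806), 10.7 CPM (SL253813) and 9.45 CPM (SL253814). The groups did not overlap, and the lowest non-pregnant heifer stood 3.32-fold above the highest AI-pregnant heifer. The underlying numbers of read pairs were 11 to 21 in the AI-pregnant and 53 to 105 in the non-pregnant heifers. The 95% exact (Clopper-Pearson) intervals of the non-pregnant values began at 7.12 CPM or above, and those of the AI-pregnant values ended at 4.35 CPM or below. Such intervals cover counting error only and take no account of the choice of the gene on these values.

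**Figure D1:**
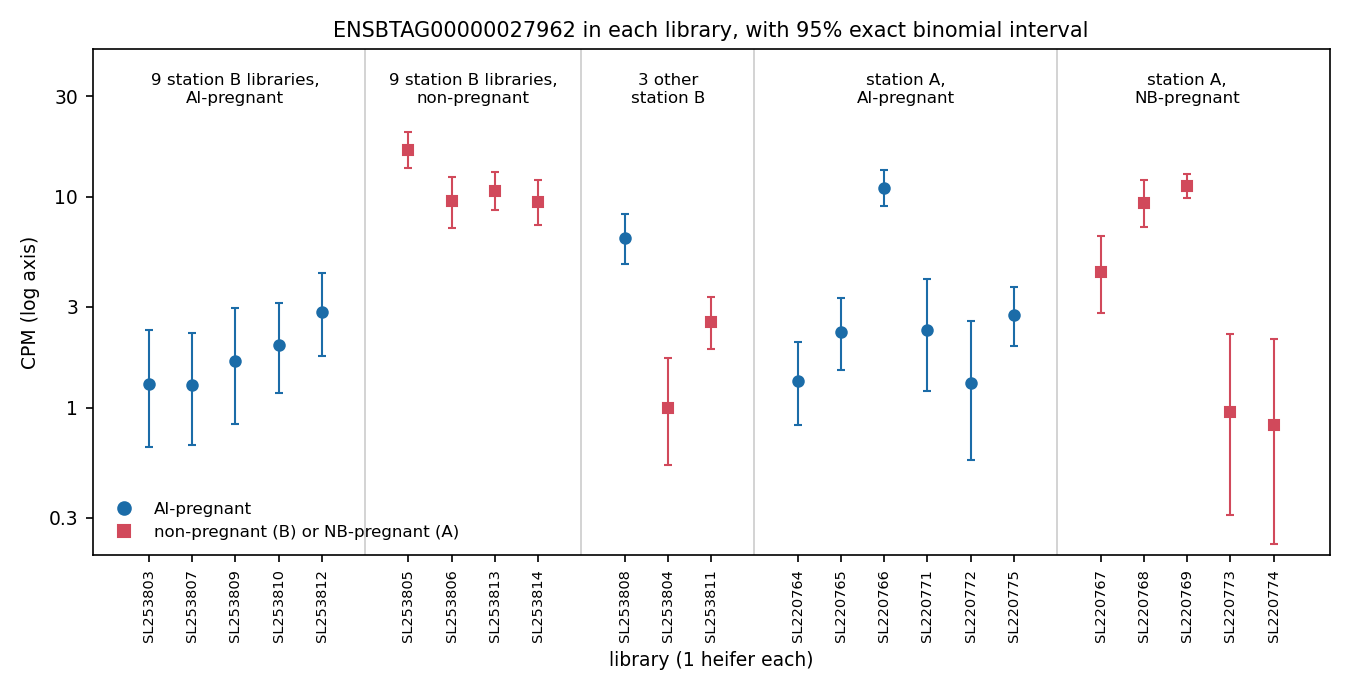
CPM of ENSBTAG00000027962 in each of the 23 libraries on a log axis, with bars for the 95% exact binomial interval of the count, circles for AI-pregnant and squares for non-pregnant (station B) or NB-pregnant (station A) heifers. The 4 non-pregnant heifers of the 9 libraries sit between 9.45 and 16.7 CPM and the 5 AI-pregnant heifers between 1.29 and 2.84 CPM, while the 3 other libraries of station B show the opposite order and station A shows high and low heifers in both outcomes.

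The mean was 11.6 ± 3.47 CPM (SD, n = 4) in non-pregnant and 1.82 ± 0.643 CPM (SD, n = 5) in AI-pregnant heifers, a ratio of 6.38. The log2 fold change of the edgeR fit over these 9 libraries was 2.66 (standard error 0.33), with AI-pregnant heifers as the reference. Of the 10374 genes fitted in the 9 libraries, 1 gene, or 0.00964%, was called by edgeR's quasi-likelihood test (adjusted p under 0.05), and that gene is the one described here because of this call. In 5 of the 9 fits that each left out 1 heifer the gene was still called. It was not called without the AI-pregnant heifers SL253803, SL253807, SL253809 or SL253810, where the log2 fold change was 2.56 to 2.70. Every non-pregnant heifer stood above every AI-pregnant heifer for 17 of the 10374 genes, or 0.164%. Among these, ENSBTAG00000027962 had the widest gap between the outcomes, and the next widest was 1.30-fold. These counts were made on the contrast that chose the gene and support nothing about it.

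Among the expressed genes of each of the 9 libraries, this gene stood in the lower part in AI-pregnant heifers and near the middle or above it in non-pregnant heifers. On the FPKM scale, which divides the counts by gene length and library total, it had 2.70 ± 0.957 FPKM (SD, n = 5) in AI-pregnant and 17.2 ± 5.15 FPKM (SD, n = 4) in non-pregnant heifers. Between 19.6% and 30.5% of the 10832 retained genes had a lower FPKM in the AI-pregnant libraries, and between 49.5% and 63.6% in the non-pregnant libraries. In the 3 libraries set aside the share was 30.6% in the AI-pregnant heifer (9.67 FPKM) and 7.13% and 16.2% in the non-pregnant heifers (1.51 and 3.91 FPKM).

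The 3 libraries set aside took no part in the choice of the gene, and in them the order of the outcomes was the opposite. The AI-pregnant heifer SL253808 had 6.36 CPM from 54 read pairs (95% exact interval 4.78 to 8.30). The non-pregnant heifers had 0.999 CPM from 13 read pairs (SL253804, 0.532 to 1.71) and 2.54 CPM from 52 read pairs (SL253811, 1.90 to 3.34). Both non-pregnant values lay inside or below the range of the 5 AI-pregnant heifers of the 9 libraries, and the AI-pregnant value lay between the 2 groups. With 2 heifers against 1, an exact permutation test of both sides cannot go below p = 0.667, so the difference was not tested. The log2 ratio of the mean CPM in these 3 libraries was -1.84.

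Over all 12 libraries of station B the groups therefore overlapped. The 6 AI-pregnant heifers ranged from 1.29 to 6.36 CPM with a median of 1.83, and the 6 non-pregnant heifers from 0.999 to 16.7 CPM with a median of 9.48. The means were 2.57 ± 1.94 CPM and 8.32 ± 5.76 CPM (SD, n = 6 each), and the log2 fold change was 1.67 (standard error 0.64). No test is attached to it, since 9 of the 12 libraries chose the gene. Over the 12 libraries edgeR's quasi-likelihood test called 0 of 10832 genes at an adjusted p under 0.05. The call of the gene was thus made only with the 3 libraries set aside. Without SL253808 the log2 fold change was 2.19, and without the highest non-pregnant heifer, SL253805, it was 1.28.

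**Figure D2:**
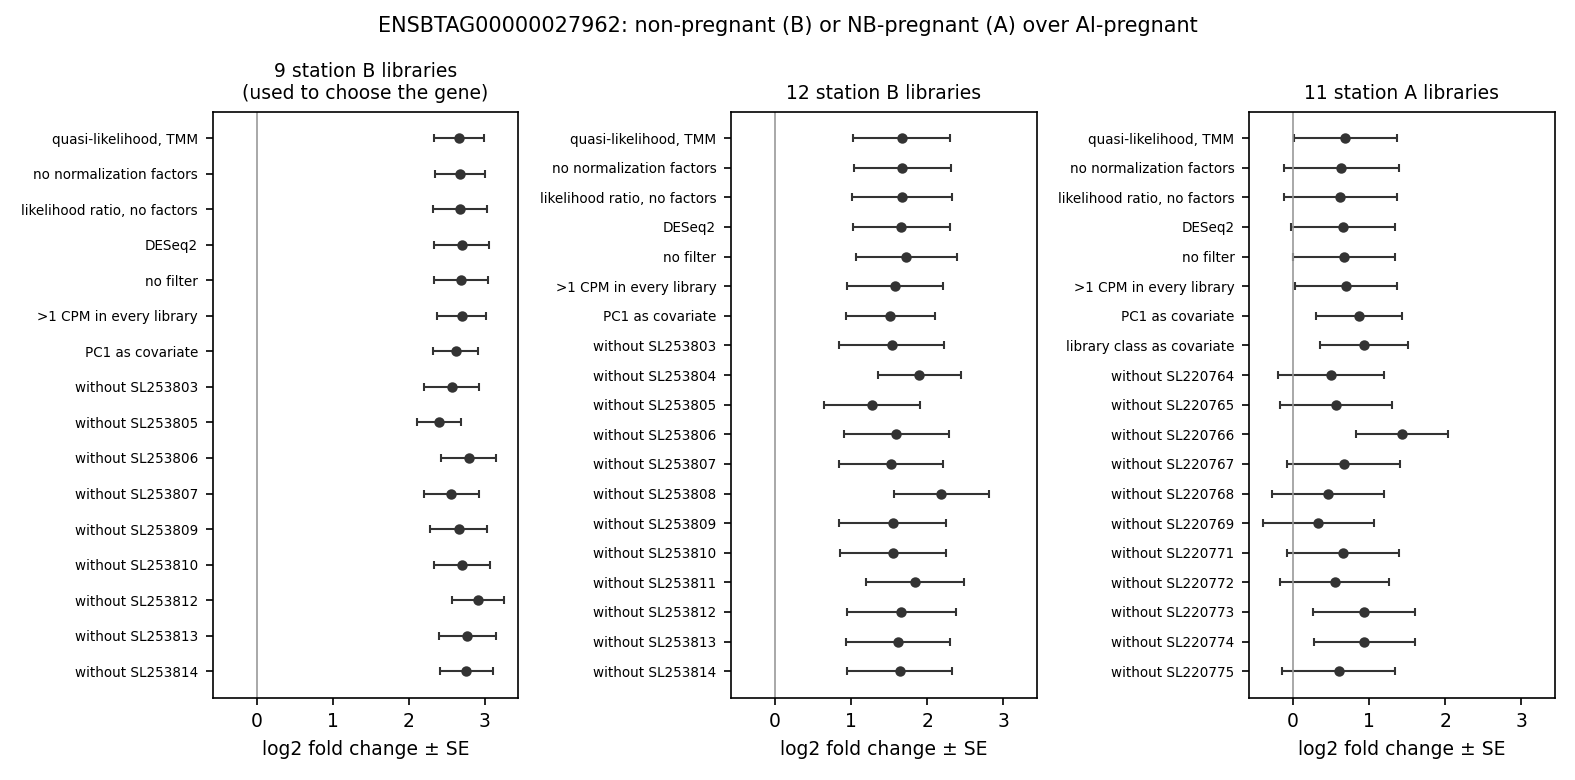
Log2 fold change of ENSBTAG00000027962 (points) with its standard error (bars) under each processing alternative and with each library left out, for the 9 and the 12 libraries of station B (non-pregnant over AI-pregnant) and for station A (NB-pregnant over AI-pregnant). The estimates lie between 2.40 and 2.91 in the 9 libraries, between 1.28 and 2.19 in the 12 libraries, and between 0.33 and 1.43 in station A.

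Station A was independent of the choice of the gene, and there its level did not separate NB-pregnant from AI-pregnant heifers. Station A had no non-pregnant heifers, so the contrast of station B was not repeated there. The AI-pregnant heifers had 1.33 CPM (SL220764), 2.28 CPM (SL220765), 11.03 CPM (SL220766), 2.33 CPM (SL220771), 1.31 CPM (SL220772) and 2.75 CPM (SL220775). The NB-pregnant heifers had 4.37 CPM (SL220767), 9.37 CPM (SL220768), 11.2 CPM (SL220769), 0.958 CPM (SL220773) and 0.829 CPM (SL220774). Of the 6 AI-pregnant heifers 5 were low and 1 was high, whereas the NB-pregnant heifers included both the highest and the lowest values of the station, and the groups overlapped over nearly their whole range. The means were 3.50 ± 3.73 CPM (SD, n = 6) and 5.35 ± 4.78 CPM (SD, n = 5), which differed by 1.85 CPM. That difference was smaller than the SD of either group. An exact permutation test of the difference of means over all 462 splits, two-sided, gave p = 0.537, where 0.00433 is the smallest p this design allows.

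In station A the gene had a log2 fold change of 0.69 with a standard error of 0.68 (edgeR's quasi-likelihood test over 12128 genes, adjusted p 0.999), the NB-pregnant mean being the higher. Its 95% interval, from the standard error and 9 residual degrees of freedom, ran from -0.85 to 2.23, and it covers 0. The test called 0% of the genes in station A, with 102 genes at an unadjusted p under 0.05, and DESeq2 called 2 genes at an adjusted p under 0.05, of which ENSBTAG00000027962 was not one (adjusted p 0.9999). A complete separation with every NB-pregnant above every AI-pregnant heifer was seen for 4 of 12128 genes, or 0.033%, and this gene was not among them. The result leaned on the AI-pregnant heifer SL220766. Without it the log2 fold change came to 1.43 with a standard error of 0.61 (unadjusted p 0.0375 and adjusted p 0.99997 in edgeR), and the exact permutation test of the CPM gave p = 0.206. Without the NB-pregnant heifer SL220769 the log2 fold change was 0.33, and without SL220768 it was 0.46.

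The libraries of station A fell into 2 classes by their composition, and the level of the gene was examined within each. In 5 libraries the 100 most abundant genes took 24.1% to 29.4% of the counts, and in the other 6 they took 13.1% to 18.4%. Among the 5 libraries the 3 NB-pregnant heifers had 0.829 to 4.37 CPM and the 2 AI-pregnant heifers 1.31 to 2.33 CPM (exact permutation test, two-sided, p = 1, smallest possible 0.2). Among the other 6, the 2 NB-pregnant heifers had 9.37 and 11.2 CPM and the 4 AI-pregnant heifers 1.33 to 11.03 CPM (p = 0.267 in the same exact test, smallest possible 0.133). All 3 values above 9 CPM in station A came from the class with the lower share. The 2 classes also differed in depth, with 4826003 to 6105250 counted pairs in the 5 libraries and 6832237 to 20053283 in the other 6. The gene had 4 to 24 read pairs in each of the 5. Depth and composition cannot be told apart here. With the class as a covariate the estimate was 0.93 on the log2 scale (standard error 0.58), at an adjusted p of 0.927 in edgeR. The part of library composition or depth in the level of the gene was not tested.

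**Figure D3:**
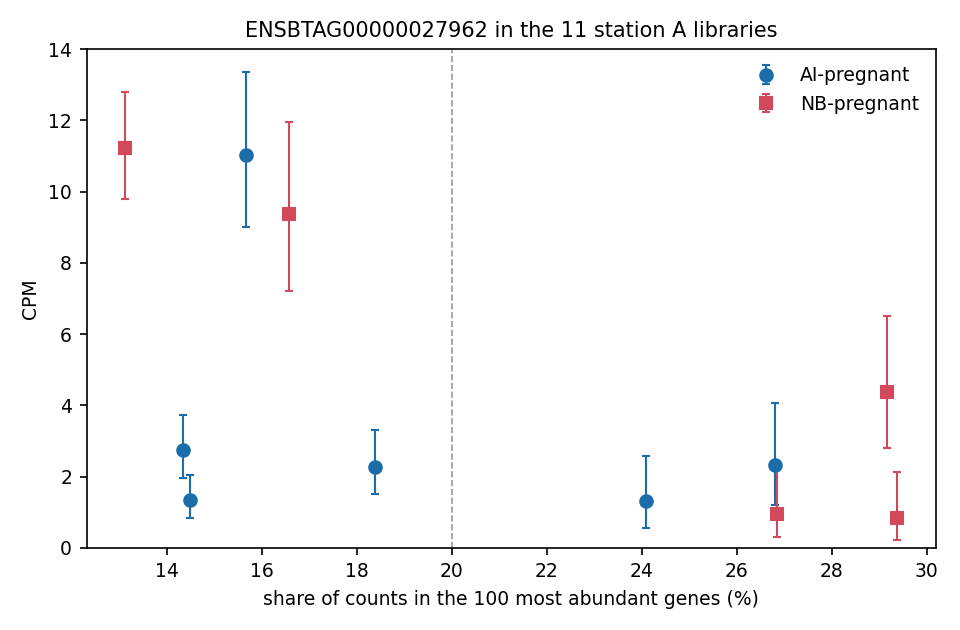
CPM of ENSBTAG00000027962 in the 11 libraries of station A against the share of counts in the 100 most abundant genes of the library, with 95% exact binomial intervals. The dashed line at 20% parts the 2 classes. The 5 libraries to its right, which are also the smallest of the station, reach at most 4.37 CPM, and high heifers of both outcomes stand to its left.

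Across both stations few heifers had a level between low and high. Of the 23 heifers 7 had more than 9 CPM, 14 had less than 3 CPM and 2 lay between, limits that were set after the values had been seen. The 23 include the 9 libraries that chose the gene, whose gap came with that choice. Of the 12 AI-pregnant heifers 10 were below 3 CPM, and 5 of the 12 are among those that chose the gene. Of the 5 NB-pregnant heifers 2 were above 9 CPM and 2 below 3 CPM. Ordered by their means, the non-pregnant heifers of the 9 libraries came first (11.6 CPM), then the NB-pregnant (5.35 CPM) and AI-pregnant heifers of station A (3.50 CPM), and last the AI-pregnant heifers of the 9 libraries (1.82 CPM). With all 12 libraries of station B the order was the same, at 8.32 CPM for the non-pregnant and 2.57 CPM for the AI-pregnant heifers. The first and last places rest on the 9 libraries that chose the gene, which are also 9 of these 12. They came with that choice, and the order supports nothing about the outcomes. In the 3 libraries set aside the AI-pregnant heifer stood above both non-pregnant heifers. Each neighbouring pair in this order overlapped, with at least 1 heifer of the lower group above the lowest of the higher group. Levels of the 2 stations come from separate tables with the same count unit, and the station cannot be told apart from whatever else differed between them.

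The spread of the gene was above the median of genes of similar level among heifers of station A and below it among the AI-pregnant heifers of station B. The standard deviation of its log2 CPM over the 11 libraries was 1.29, and 94.1% of the 12128 retained genes had a lower one, with a median over all retained genes of 0.59. Low counts widen the spread, so genes of similar level serve as the comparison. Among 1045 genes whose mean log2 CPM lay within 0.5 of its own, the median standard deviation was 0.86, and 136 genes exceeded the value of ENSBTAG00000027962. Among the 6 AI-pregnant heifers of station B, 5 of which took part in the choice of the gene, its standard deviation was 0.81, the median of 1152 genes of similar level was 1.03, and 719 of these exceeded it. The highest and lowest heifers of station A differed 13.5-fold, and those of station B 16.7-fold.

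The genes whose pattern was most like that of ENSBTAG00000027962 showed smaller differences between the outcomes, which came largely with the choice of that gene on this contrast. Likeness was measured as Pearson's r of log2 CPM over the 9 libraries, for 10831 retained genes of station B, and is given as a description without a p. The 10 most alike genes were ENSBTAG00000020070 (r = 0.88), ENSBTAG00000021287 (0.87), ENSBTAG00000026851 (0.86), ENSBTAG00000005180 (0.86), ENSBTAG00000021151 (0.84), ENSBTAG00000015910 (0.82), ENSBTAG00000040161 (0.82), ENSBTAG00000019225 (0.81), ENSBTAG00000015945 (0.81) and ENSBTAG00000046273 (0.80). None of the 10 is paired with a symbol in the files or by the study. Their log2 ratio of non-pregnant to AI-pregnant mean CPM ran from 0.15 to 0.99, against 2.67 for ENSBTAG00000027962. The outcomes did not overlap in 7 of the 10. Among the 10374 genes fitted in the 9 libraries, 17, or 0.164%, had every non-pregnant above every AI-pregnant heifer. The 10 were picked for following a gene that separates the outcomes, so their count came largely with that choice.

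The range of levels among them was wide. ENSBTAG00000015910 was abundant and nearly even, with 943 to 1039 CPM in AI-pregnant and 1052 to 1203 CPM in non-pregnant heifers. ENSBTAG00000046273 was near the detection filter, with 0.965 to 1.62 CPM and 1.86 to 3.77 CPM in the same groups. Because the 9 values of ENSBTAG00000027962 form a low and a high cluster that are the outcomes, r mostly measures the outcome difference. For deviations from the outcome means, r of the 10 genes ran from -0.20 to 0.73 with a median of 0.46.

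The opposite pattern was led by ENSBTAG00000034871 (r = -0.92), which had 1.49 to 1.88 CPM in AI-pregnant and 0.796 to 1.27 CPM in non-pregnant heifers. It was followed by ENSBTAG00000004977 (-0.84), ENSBTAG00000001889 (-0.83), ENSBTAG00000002272 (-0.77) and ENSBTAG00000033255 (-0.77). Of the 10831 genes 9 had an r of at least 0.8 and 3 of -0.8 or less, and the median over all was -0.01.

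**Figure D4:**
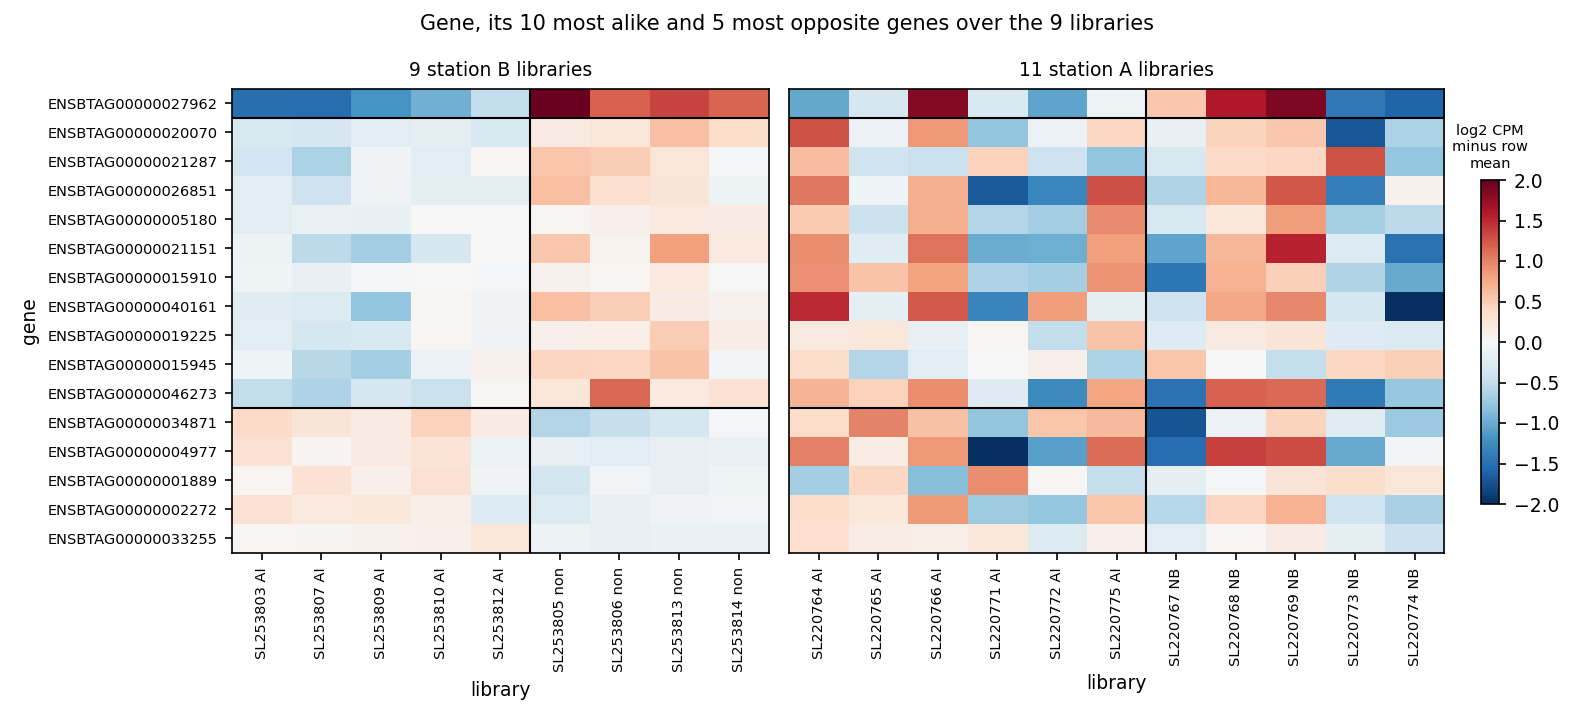
Log2 CPM minus the mean of the row for ENSBTAG00000027962 (top), its 10 most alike genes (middle) and its 5 most opposite genes (bottom), in the 9 libraries of station B and the 11 of station A, with AI-pregnant heifers left of the vertical line. In the 9 libraries the top gene, which was chosen on these values, changes more than any gene beneath it. In station A its high heifers stand in both outcomes.

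The likeness was lower when libraries that had not been used to rank the genes were added or taken alone. A drop is usual for genes picked by their r. With the 3 libraries set aside included, r of the 10 genes over 12 libraries ran from 0.07 to 0.74 with a median of 0.41, and 1 of them was still among the 10 most alike. In station A, 9 of the 10 genes were retained, and 8 of them had a positive r over its 11 libraries, with a median of 0.50. There 67.1% of all 12127 genes had a positive r, with a median of 0.36. For deviations from the means of the 2 library classes, 6 of the 9 were positive with a median r of 0.17, against 44.0% of all genes and a median of -0.04. Of the 5 most opposite genes 4 were retained in station A, and 1 of these had a negative r. The ranking also leaned on single heifers of the 9. Without SL253805 only 1 of the 10 genes stayed among the 10 most alike, and the number was 3 without SL253807, 4 without SL253810, 5 without SL253814 and 6 without SL253809.

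**Figure D5:**
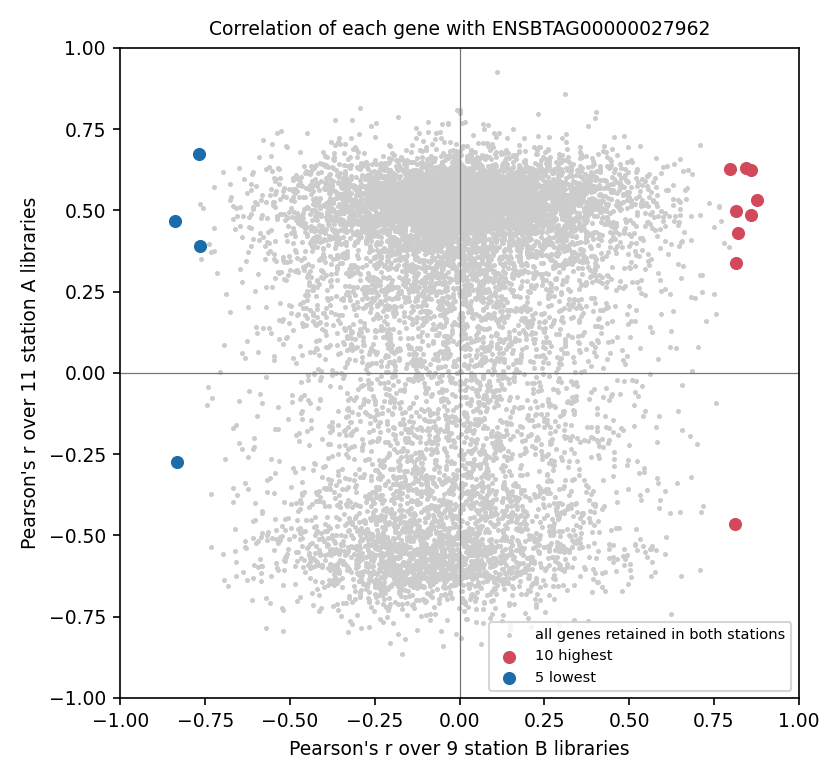
Pearson's r of each gene with ENSBTAG00000027962 over the 9 libraries of station B (x axis) and over the 11 libraries of station A (y axis), for genes retained in both stations, with the 10 highest and 5 lowest of the 9 libraries coloured where station A retained them. Of the 9 coloured genes on the right 8 lie above 0 on the y axis, where most grey points lie too, and of the 4 on the left 1 lies below it.

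The genes that the study named between the outcomes offered the only symbols to set beside this gene, and 22 of those 24 were retained in station B. Their median r over the 9 libraries was 0.27, with 15 of 22 positive, against 48.2% of all genes, and over all 12 libraries it was 0.03, with 12 of 22 positive. The study chose 18 of the 24 on station A, other heifers than those of the ranking, and 16 of these were retained, with a median r of 0.20 over the 9 libraries and 0.06 over the 12. It chose the other 6 on station B, so their r is not independent of that choice, and it had a median of 0.34 over the 9 libraries and -0.12 over the 12. The highest was LOC522763, an uncharacterized locus (r = 0.65), which had 2.87 to 6.51 CPM in AI-pregnant and 4.12 to 59.7 CPM in non-pregnant heifers. CNKSR3, a scaffold protein of kinase signalling, followed with 0.54, and MNS1, a structural protein of meiotic cells and flagella, with 0.42. The lowest was SAXO2, a stabilizer of axonemal microtubules, with -0.67, and its 1.61 to 2.98 CPM in AI-pregnant heifers lay above the 0.873 to 1.43 CPM of non-pregnant heifers. ANG, a secreted ribonuclease, had -0.38, and UGT8, a glycosyltransferase of galactolipid synthesis, had -0.32. Over all 12 libraries r was 0.65 for LOC522763, 0.30 for CNKSR3, 0.39 for MNS1, -0.30 for SAXO2, -0.46 for ANG and -0.16 for UGT8. Within the outcomes of the 9 libraries r turned to 0.67 for SAXO2, to -0.59 for CNKSR3 and to 0.34 for ANG, the opposite sign in each. There r was 0.22 for LOC522763, 0.22 for MNS1 and -0.03 for UGT8.

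Markers of blood cell types could be read for 6 genes with a known identifier, and none separated the outcomes in the 9 libraries. Of the 10374 genes fitted there, only 0.164% had every non-pregnant above every AI-pregnant heifer. Lack of this order in 6 genes is therefore what nearly any genes would show. The share with the reverse order was not counted. LYZ, the lysozyme of monocytes and neutrophils, had 730 to 2146 CPM in AI-pregnant and 777 to 1947 CPM in non-pregnant heifers. FCER1A, the IgE receptor subunit of basophils and dendritic cells, had 7.82 to 21.0 CPM and 14.9 to 21.7 CPM. ALAS2, the heme synthesis enzyme of erythroid cells, had 1.42 to 6.06 CPM and 3.71 to 9.503 CPM. SIGLEC14 (myeloid cells) and P2RY12 (platelets) overlapped likewise, as did KIR3DL1 (NK cells). KIR3DL1 missed the expression filter of station B and was at 0 in at least 1 non-pregnant heifer. The summed level of the 6 was 748 to 2180 CPM in AI-pregnant and 804 to 1997 CPM in non-pregnant heifers, and over all 12 libraries 679 to 2180 CPM and 523 to 1997 CPM. In the 3 libraries set aside ALAS2 had 4.95 CPM in the AI-pregnant and 16.8 and 44.3 CPM in the non-pregnant heifers. In station A the sum was 1135 to 1825 CPM in AI-pregnant and 732 to 1024 CPM in NB-pregnant heifers, and it was made mostly of LYZ. The study picked 5 of the 6 markers, all but ALAS2, as differing between these same heifers, so this separation came with the choice of the genes. SIGLEC14 alone had 6.20 to 12.9 CPM and 2.07 to 5.85 CPM there. The part of the markers in the level of ENSBTAG00000027962 was not tested.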

How the data were processed

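Total RNA of PWBC was sequenced as 1 stranded mRNA library per heifer. Per the study's methods, the authors mapped pairs of reads to UMD3.1 (bovine), removed duplicates, pairs aligned to several places and those with 5 or more mismatches, and counted pairs on Ensembl genes with HTSeq. Its strand setting and the aligner are not given in the sources used here. A gene that shares sequence with a copy would lose pairs in this way, and reads of an overlapping gene cannot be set apart. The deposited counts are whole numbers without normalization for 24616 genes per station. The deposited FPKM were made by the authors from the counts of the genes that exceeded 1 CPM in at least 6 libraries of that station.

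CPM were computed on the full total of each library. Stations were fitted apart with edgeR's quasi-likelihood test (TMM factors, Benjamini-Hochberg adjustment), on genes that did so among the libraries fitted, with AI-pregnant heifers as the reference. This test stands in place of the unadjusted likelihood ratio and DESeq2 tests of the study, which were run as alternatives. Standard errors were derived from each log2 fold change and its test statistic. CPM of station A were compared by exact permutation tests. Likeness used log2 CPM with a prior count of 2 over genes retained in station B. Named were the 10 genes with the highest and the 5 with the lowest r, the 3 highest and 3 lowest of the genes in the study's tables, and marker genes with a known identifier. The gene, the 9 libraries and the lists were chosen with earlier results of these data known. The fits and the ranking were checked on simulated data. The table of gene names given for this work matched no Ensembl identifier, so most markers were not analysed here. Each heifer is an independent sample. Software was edgeR 4.0.16, DESeq2 1.42.0 and limma 3.58.1 in R 4.3.3, with pandas 2.3.3, scipy 1.17.1, matplotlib 3.10.9 and numpy 2.4.6 in Python 3.11.15.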

Additional observations from a re-analysis of the deposited data

Results flagged for a closer look

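The CPM of 2 heifers stood far from the others of their group for ENSBTAG00000027962, each by Dixon's criterion on a group of 6. Chance alone meets it in about 1 in 20 groups, a rate that applies to station A only. The AI-pregnant heifer SL220766 of station A had 11.03 CPM, where the other 5 had 1.31 to 2.75 CPM. The AI-pregnant heifer SL253808 of station B had 6.36 CPM, where the other 5 had 1.29 to 2.84 CPM, but those 5 are among the heifers whose values chose the gene, so its distance from them is a description with no test. SL253808 is also 1 of the 3 libraries whose profile stood apart, with 1512 of the 1706 genes that passed the filter in station A alone above 1 CPM.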

How the results depend on the processing

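The log2 fold change kept its sign in the 9 and the 12 libraries of station B and in station A without TMM factors, in the likelihood ratio test, in DESeq2, with no filter or a stricter one on low counts, with a covariate for the first principal component, and without any 1 heifer. Without 1 heifer it ranged from 2.40 to 2.91 in the 9 libraries, from 1.28 to 2.19 in the 12, and from 0.33 to 1.43 in station A, where no fit called the gene. The CPM difference of station A was 0.379 to 3.35 without 1 heifer. In the 3 libraries set aside, an alternative added after the data had been seen, the log2 ratio was -1.84, the opposite direction, and the cause was not tested. No gene of station A was called by edgeR with or without any 1 heifer (0 to 0 genes), and 2 were by DESeq2. Of the 10 most alike genes, 1 to 9 were kept without 1 heifer, 0 on deviations from the outcome means, and 1 over all 12 libraries, the last also added later. No paired analysis was possible because the labels give no number that groups share. Low counts limit the precision, with 4 to 52 read pairs in the 14 heifers below 3 CPM and 24 in SL220767.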

Other observations

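Station A had its own most alike genes, which were chosen after their values had been seen. ENSBTAG00000004401 had an r of 0.93 with ENSBTAG00000027962 over the 11 libraries of station A, and 0.89 for deviations from the means of the 2 library classes. Its level there was 0.383 to 3.66 CPM. Over the 9 libraries of station B its r was 0.11, at 1.83 to 11.5 CPM. ENSBTAG00000012668 had an r of 0.86 in station A, 0.86 within the library classes and 0.31 over the 9 libraries of station B. It had 5.94 to 68.0 CPM in station A. Both values of r are descriptions of genes taken from the top of 12127.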
